A study of Mus musculus with 6 samples.

Results

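The 10 genes described here encode the neurofilament subunits Nefl, Nefm, Nefh and Ina, the microtubule-associated proteins Map1a, Map1b, Map2 and Mapt, and the beta-tubulins Tubb3 and Tubb4a. They were chosen by name, from 24553 genes and unmatched rows in the deposited count table, and all 10 had a row. RNA of the cortex was sequenced from male C57BL/6J mice at an age of 15 weeks, 14 days after stroke. Short-chain fatty acids (SCFA), the products of fibre fermentation by gut bacteria, had been given to the animals of 3 libraries, and a control matched for salt to those of the other 3. Both were offered in the drinking water over 4 weeks, starting when the mice were 6 to 8 weeks old, and all animals also drank metronidazole, neomycin, ampicillin and vancomycin with 5% sucrose. The design gives 3 mice to each group, and each library was taken as 1 animal. The sources used here do not give the side of the brain or the distance from the lesion.

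Neurofilaments are the intermediate filaments of neurons. They are built from the light, medium and heavy subunits together with alpha-internexin, fill large axons and set their calibre, and are released into body fluids when axons are damaged. Microtubules are hollow tubes of alpha- and beta-tubulin that carry transport along axons and dendrites. Microtubule-associated proteins bind along them, with Map2 mainly in dendrites and tau, the product of Mapt, mainly in axons.

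No difference between SCFA and control passed the test for any of the 10 genes. Among the abundant ones, Nefl and Map1b lay close together in the groups. Nefl averaged 409 ± 24.6 CPM (counts per 1e6 counts of the scaled library) in SCFA libraries and 414 ± 30.6 CPM in control libraries, and Map1b 1985 ± 228 and 1924 ± 134 CPM (SD, n = 3 each). Map2 and Tubb4a lay further apart, at 833 ± 38.8 and 727 ± 42.0 CPM and at 299 ± 98.3 and 239 ± 31.7 CPM. In edgeR's quasi-likelihood test over 11969 genes, 0 of the 10 passed a Benjamini-Hochberg adjusted p under 0.05, where 0.0835% of all tested genes did. At an unadjusted p under 0.05 the count was also 0, where 5.76% of all genes passed. DESeq2, which called 0.259% of all genes, and limma-voom likewise gave 0 of the 10 by either threshold. The log2 fold changes, SCFA over control, ran from -0.08 for Ina to 1.05 for Mapt, and their median was 0.17, beside 0.01 over all genes tested. Of the 10, 8 lay above 0, beside 50.9% of all genes. The median was 0.069 without SCFA 2, 0.14 with 6 of 10 above 0 without control 2 and SCFA 2, and 0.40 with total-count scaling, which moved the median of all genes to 0.18. The standard errors were small next to those of most genes, with a median of 0.184 on the log2 scale against 0.333 over all genes tested.

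**Figure D1:**
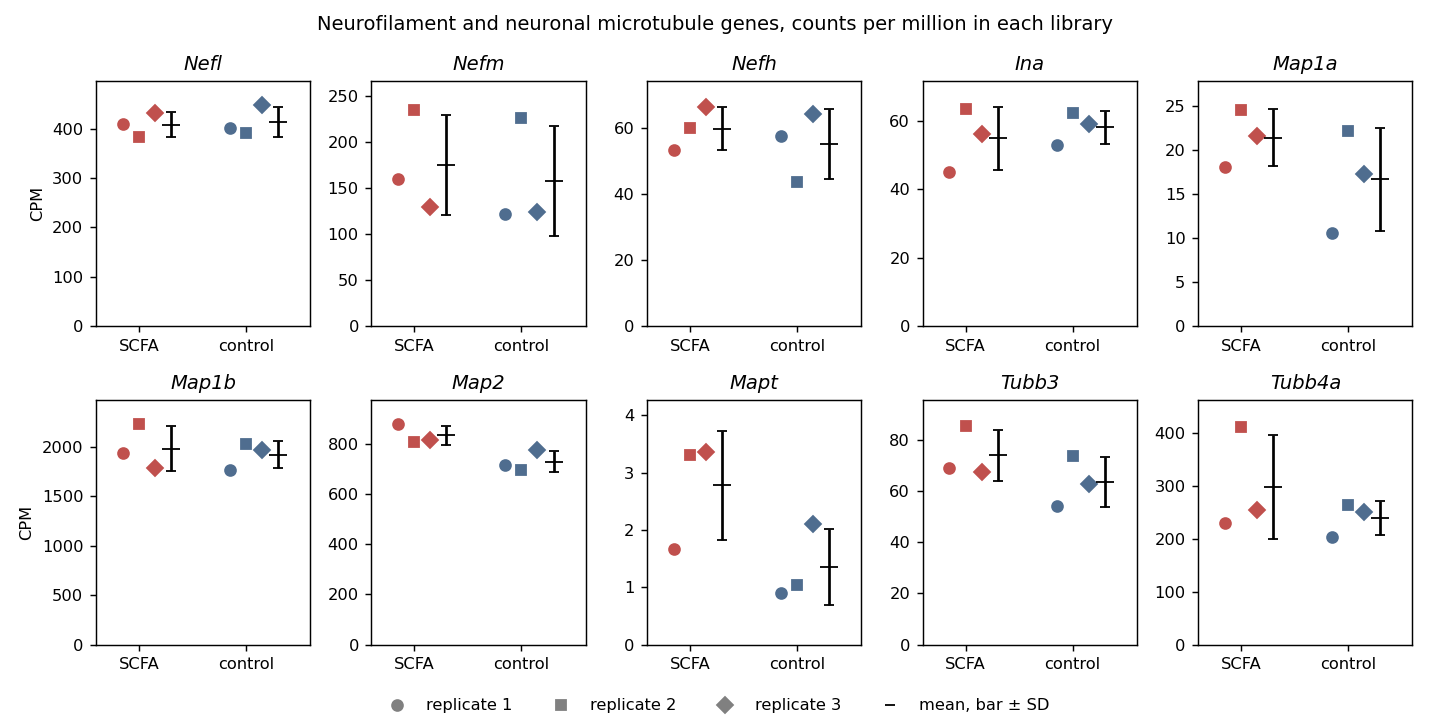
CPM of each of the 10 genes in each library, with SCFA on the left and control on the right of each panel, marker shapes for the replicate numbers and the mean ± SD (n = 3) beside the points. Map2 is the gene whose groups do not overlap, and SCFA 2 is the highest library for Nefm, Tubb4a and Tubb3.

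Total counts were 9275252 to 13862756 per library, and a single row with no gene name took 35.0% to 55.3% of them. Libraries stood apart in both groups. On the first principal component control 2 was at 109.2, where the others lay between -25.8 and -17.7, and had counts in 13600 rows, where the others had 15988 to 16941. SCFA 2 lay at 51.6 on the second component, where the others lay between -30.7 and 9.54. In the check of the tissue label, 10 of 12 genes of cortical neurons were tested, with summed levels of 1415 to 1581 CPM in SCFA and 1231 to 1517 CPM in control libraries (Cux1 was at 0 counts). Genes of striatal neurons, a region beneath the cortex, summed to 592 CPM in SCFA 2, 191 and 221 CPM in SCFA 1 and SCFA 3, and 176 to 269 CPM in control libraries, over 9 tested genes of 12 with none at 0.

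For 3 of the genes, Map1a, Map2 and Mapt, the table holds several transcript rows. The sequences below are coding exons that GENCODE M21 (GRCm38) places in the transcript paired with one row and in no transcript paired with the gene's other rows. They are shown because they are among the stretches by which the rows of a gene differ. Longer unshared stretches, such as the large Map2 exon described with that gene, are not shown. The Mapt exons are those of the N-terminal inserts of tau, the Map2 exon is the one that adds a microtubule-binding repeat, and the Map1a exon lies near the start of its longer transcript. All lie on the plus strand, are written 5′ to 3′, and are in lower case because no part of an exon is singled out.
Mapt, first insert exon, chr11:104287123-104287209: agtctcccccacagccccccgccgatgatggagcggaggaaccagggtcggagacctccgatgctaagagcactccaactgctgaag
Mapt, second insert exon, chr11:104289908-104289994: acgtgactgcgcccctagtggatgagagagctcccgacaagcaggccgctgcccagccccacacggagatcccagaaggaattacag
Map2, added repeat exon, chr1:66431527-66431619: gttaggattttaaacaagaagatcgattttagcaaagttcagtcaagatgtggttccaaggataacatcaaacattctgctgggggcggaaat
Map1a, early exon, chr2:121290720-121290821: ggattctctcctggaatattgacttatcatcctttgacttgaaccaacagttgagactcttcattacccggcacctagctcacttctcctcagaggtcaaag

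Nefl, the light neurofilament subunit and the core of the filament (chromosome 14, 68083863 to 68089095), had the narrowest range of the 10 genes over the 6 libraries on the log2 scale. It had 410.0, 383 and 432 CPM in SCFA 1 to 3, against 403, 391 and 449 CPM in control 1 to 3. The groups overlapped, and the highest and the lowest library were control 3 and SCFA 2. Its log2 fold change was -0.02 (SE 0.128), and the 95% interval of -0.30 to 0.26 corresponds to 0.815 to 1.20 times the control level (edgeR, adjusted p = 0.990).

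Nefm, the medium subunit, lies 30449 bases from Nefl on chromosome 14 (68119545 to 68125004). It had 159, 235 and 129 CPM in SCFA 1 to 3, against 122, 226 and 124 CPM in control 1 to 3. SCFA 2 and control 2 stood above the other 4 libraries, so the spread within each group was larger than the distance between the groups. The log2 fold change of Nefm was 0.15 (SE 0.253, 95% interval -0.39 to 0.70, edgeR adjusted p = 0.960). It was -0.12 without SCFA 2, 0.50 without control 2 and 0.23 without both.

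Nefh, the heavy subunit with the long phosphorylated tail (chromosome 11, 4938754 to 4948064), had 53.4, 60.1 and 66.4 CPM in SCFA 1 to 3, against 57.8, 43.6 and 64.4 CPM in control 1 to 3. Control 2 was its lowest library, and without control 2 the log2 fold change of 0.12 (SE 0.187, interval -0.29 to 0.52) was -0.03. Ina, or alpha-internexin, which appears earlier in development than the other subunits (chromosome 19, 47014681 to 47025327), had 45.0, 63.4 and 56.1 CPM in SCFA 1 to 3, against 52.9, 62.2 and 59.1 CPM in control 1 to 3. SCFA libraries held both its highest and its lowest value, and its log2 fold change was -0.08 (SE 0.180, interval -0.47 to 0.31). The edgeR adjusted p was 0.959 for Nefh and 0.969 for Ina.

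The subunits can also be compared within a library, where the scaling between libraries cancels. The ratio of Nefm to Nefl counts was 0.389, 0.613 and 0.298 in SCFA 1 to 3, against 0.303, 0.578 and 0.277 in control 1 to 3. It was thus highest in SCFA 2 and control 2, the libraries that stood apart on the principal components, one in each group. The ratio of Ina to Nefl was also highest in these libraries, at 0.166 in SCFA 2 and 0.159 in control 2 (0.110 and 0.130 in SCFA 1 and SCFA 3, 0.131 and 0.132 in control 1 and control 3). The ratio of Nefh to Nefl did not follow: it was highest in SCFA 2, at 0.157, and lowest in control 2, at 0.112. This grouping of libraries was seen in the values and was not tested. Between SCFA and control, the mean log2 ratio differed by 0.18 for Nefm to Nefl, by 0.15 for Nefh to Nefl and by -0.08 for Ina to Nefl. None was past the threshold in an exact two-sided permutation test (p = 0.6, 0.5 and 0.8, or 0.8 each after adjustment over the 6 ratios compared), but 3 libraries against 3 cannot give a p below 0.1.

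**Figure D2:**
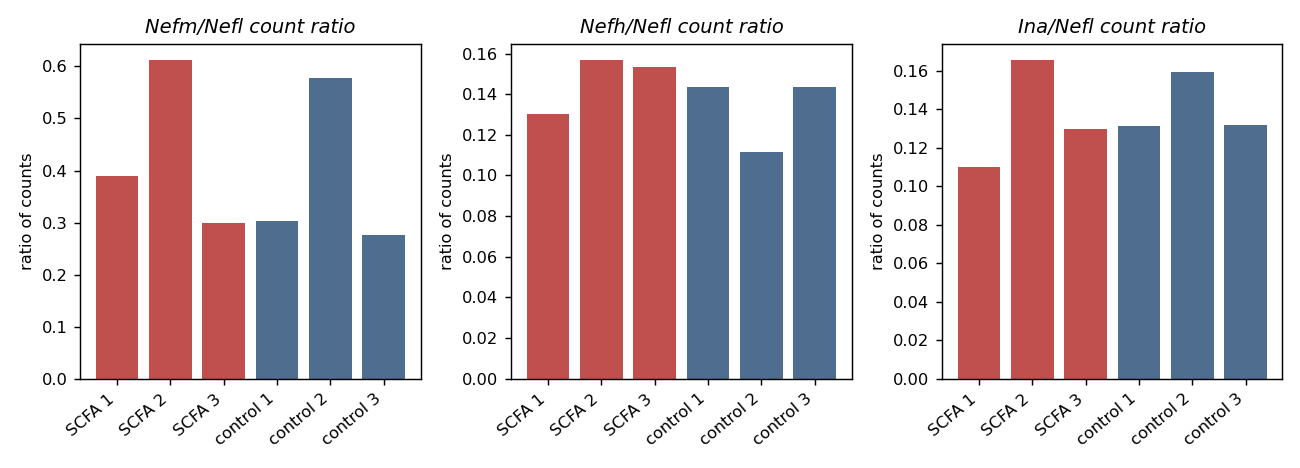
Ratio of the counts of Nefm, Nefh and Ina to those of Nefl in each library (bars from 0, SCFA in red on the left, control in blue on the right). The Nefm ratio is 0.613 in SCFA 2 and 0.578 in control 2 and at most 0.389 in the other 4 libraries.

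Among the microtubule-associated proteins, Map2 was the gene whose groups did not overlap. Map2 stabilises and spaces microtubules in dendrites (chromosome 1, 66175202 to 66442583). It had 877, 805 and 815 CPM in SCFA 1 to 3, against 713, 693 and 774 CPM in control 1 to 3. Each SCFA library lay above each control library, a pattern that 6.42% of all tested genes shared, so 1 of 10 genes is close to the background. The log2 fold change of Map2 was 0.20 (SE 0.123, interval -0.07 to 0.46), that is 0.953 to 1.38 times the control level, and it did not pass (edgeR, adjusted p = 0.892). Leaving out any 1 library gave 0.16 to 0.25, and leaving out control 2 and SCFA 2 together gave 0.19.

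The counts of Map2 came almost wholly from 1 of its 3 rows. The row of the long form (NM_001310634) held 53451 of them, and its paired transcript has 4507 unshared bases, 3741 of them in the large coding exon found in the high-molecular-weight forms (chromosome 1, 66412407 to 66416147). The row of the short form with the added repeat (NM_001039934) held 80 counts over 96 unshared bases, which are mostly the exon shown above. The third row (NM_008632), a short form with 555 unshared bases that are all noncoding, held 0 counts in all 6 libraries. The log2 fold change of the long row was 0.20 (SE 0.122) and that of the row with the added repeat 0.01 (SE 1.03). Its counts were 6, 12 and 26 in SCFA 1 to 3 and 22, 12 and 2 in control 1 to 3, too few to compare. The CPM and log2 fold change of Map2 are thus mainly those of the long row. The handling of reads shared by the Map2 rows is unknown here, so these values do not measure the level of all Map2 RNA.

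Mapt, which encodes tau (chromosome 11, 104229409 to 104332090), had the largest log2 fold change of the 10 genes and the least data. It had 16, 48 and 45 counts in SCFA 1 to 3, against 11, 9 and 21 counts in control 1 to 3, or 1.67, 3.31 and 3.36 CPM against 0.892, 1.04 and 2.11 CPM. The groups overlapped, since SCFA 1 lay below control 3. The log2 fold change was 1.05 (SE 0.768), and its interval of -0.61 to 2.70 runs from 0.655 to 6.52 times the control level (edgeR, adjusted p = 0.902). All 150 counts fell in 1 of the 5 rows (NM_001038609), whose paired transcript holds 174 bases that the other paired transcript lacks, the insert exons shown above. The other 4 rows, which GENCODE pairs with a single transcript and which were therefore not compared one by one, were at 0 in all libraries. The sources used here do not say how reads shared by several rows were counted, so these counts do not measure the level of tau RNA.

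Map1b, which is prominent in growing axons (chromosome 13, 99421464 to 99516602), was the most abundant of the 10 by CPM. It had 1938, 2233 and 1784 CPM in SCFA 1 to 3, against 1773, 2029 and 1971 CPM in control 1 to 3. SCFA libraries did not separate from controls, and the log2 fold change was 0.04 (SE 0.132, interval -0.24 to 0.33), or 0.846 to 1.26 times the control level. Map1a, its relative in mature neurons (chromosome 2, 121289590 to 121310832), had 18.0, 24.4 and 21.5 CPM in SCFA 1 to 3, against 10.5, 22.2 and 17.2 CPM in control 1 to 3. Control 1 was the lowest, and without control 1 the log2 fold change of 0.36 (SE 0.292, interval -0.27 to 0.99) was 0.12. It was 0.62 without control 2 and 0.52 without control 2 and SCFA 2. The edgeR adjusted p was 0.975 for Map1b and 0.910 for Map1a. Map1b has a single row. The handling of reads shared by the Map1a rows is unknown here, so the CPM of these genes do not give relative RNA levels.

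Map1a has 2 rows, whose log2 fold changes were 0.42 (SE 0.360) for NM_032393 and 0.29 (SE 0.445) for NM_001173506. They held 734 counts over 1769 unshared bases of 11825, and 576 counts over 89 unshared bases of 10145. NM_032393 was highest in SCFA 2, at 254 counts against 85 to 114 in the other 5 libraries. NM_001173506 was highest in SCFA 3, at 175 counts, and lowest in control 1, at 45. The ratio of Map1a to Map1b counts differed by 0.37 on the log2 scale between SCFA and control, and that of Map2 to Mapt by -0.89 (exact permutation test, two-sided, p = 0.2 and adjusted p = 0.6 for both). Both ratios use genes with several rows, so their size does not measure relative RNA levels.

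Tubb3 encodes the beta-tubulin used as a general neuronal marker (chromosome 8, 123411553 to 123422015). It had 69.0, 85.6 and 67.5 CPM in SCFA 1 to 3, against 54.4, 73.9 and 63.0 CPM in control 1 to 3. The groups overlapped through control 2, and the log2 fold change was 0.22 (SE 0.176, interval -0.16 to 0.60, edgeR adjusted p = 0.910). Without SCFA 2 it was 0.11, without control 1 it was 0.12 and without control 2 it was 0.34.

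Tubb4a encodes a brain beta-tubulin that oligodendrocytes, the myelin-forming cells, also make in quantity (chromosome 17, 57080061 to 57087600). It had 230.4, 412 and 255 CPM in SCFA 1 to 3, against 204, 263 and 251 CPM in control 1 to 3. SCFA 2 was 1.64 times the median of the other 5 libraries, while SCFA 1 and SCFA 3 lay within the range of the controls. The log2 fold change of 0.32 (SE 0.201, interval -0.11 to 0.75, edgeR adjusted p = 0.892) was 0.03 without SCFA 2, 0.22 without control 1, 0.48 without SCFA 1 and 0.09 without SCFA 2 and control 2. The ratio of Tubb4a to Tubb3 counts was 3.34, 4.81 and 3.77 in SCFA 1 to 3, against 3.74, 3.57 and 3.99 in control 1 to 3 (exact permutation test, two-sided, p = 0.8 and adjusted p = 0.8). Beta-tubulin genes resemble each other closely, so the split of reads between them is uncertain.

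**Figure D3:**
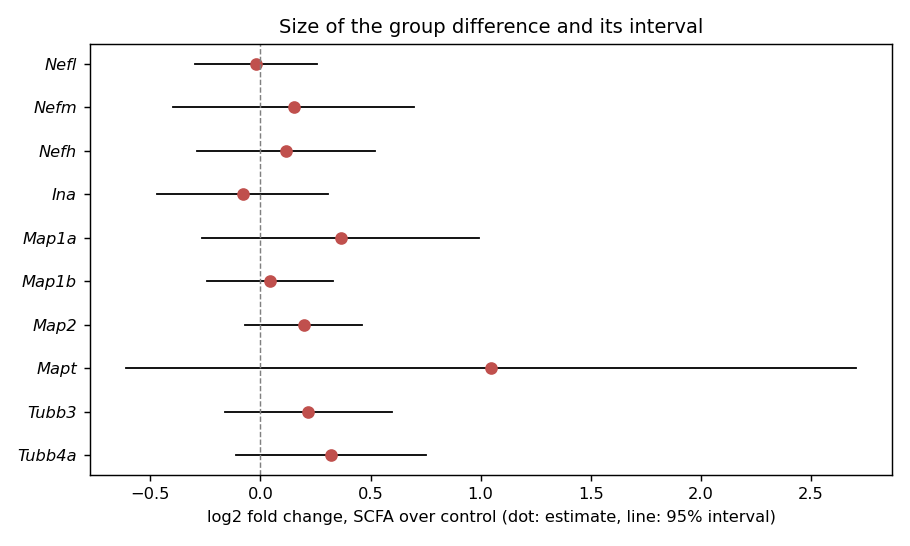
Log2 fold change of SCFA over control for each of the 10 genes (dot, edgeR) with its 95% interval (line). Every interval includes 0, and that of Mapt, from -0.61 to 2.70, is the widest.

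Of the 10 genes, 7 have a single row, and their levels can be set side by side per kilobase of the paired GENCODE transcript. Map1b came first, with 168 ± 19.3 CPM per kilobase in SCFA and 163 ± 11.4 in control libraries. Tubb4a (134 ± 44.1 and 107 ± 14.2) and Nefl (121 ± 7.29 and 122 ± 9.04) followed and did not differ beyond their spread. Nefm (52.3 ± 16.3 and 47.2 ± 17.8) and Tubb3 (39.6 ± 5.39 and 34.1 ± 5.23) formed the next pair, with overlapping ranges. Within each library, however, Nefm lay above Tubb3. Ina (16.9 ± 2.86 and 17.9 ± 1.47) and Nefh (15.0 ± 1.64 and 13.8 ± 2.65) came last, also with overlapping ranges. Ina likewise lay above Nefh within each library. The order of genes within libraries was not tested. All these values are CPM per kilobase, SCFA before control (SD, n = 3 each).

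SCFA 2 was the highest library for 6 of the 10 genes, where it was the highest for 20.4% of all tested genes. Control 1 was the lowest for 6 of the 10, where it was the lowest for 12.9% of all genes. On a mean over the 10 genes of log2 CPM, centred over the 6 libraries, SCFA 1 to 3 lay at -0.06, 0.31 and 0.09, against -0.31, -0.03 and -0.01 in control 1 to 3. Mapt, at 9 to 48 counts per library, had the same weight as each other gene and lay furthest from this mean. Its centred log2 CPM, without a prior count, was -1.03 in control 1, 0.86 in SCFA 2 and 0.88 in SCFA 3. A mean without Mapt was not formed. The genes most like this mean profile, among 3440 others with at least 5 log2 CPM, were Spock2 (mean absolute difference 0.020 log2 units over the 6 libraries), Tspan7 (0.045), Myo6 (0.046), Cyb5r3 (0.048) and Per2 (0.054).

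General neuronal genes outside the cytoskeleton had their extremes in the same libraries. Over 10 tested genes of 12 (Celf4 was at 0 counts), their summed level was 3068, 4490.4 and 3492 CPM in SCFA 1 to 3, against 2822, 3097 and 3131 CPM in control 1 to 3. Their score, formed as for the 10 genes, was likewise highest in SCFA 2 (0.23) and lowest in control 1 (-0.21). Taken relative to the mean of these neuronal genes in each library, 5 of the 10 genes differed between SCFA and control by a value above 0 and 5 by a value below 0, with a median of -0.01 on the log2 scale. That mean gives each neuronal gene the same weight, including genes with a standard error as large as 0.758, so this balance is uncertain. In bulk tissue, fewer neurons and less RNA per neuron cannot be told apart. Oligodendrocyte genes summed to 218 to 271 CPM in SCFA and 191 to 273 CPM in control libraries over 9 tested genes, and the part of oligodendrocytes and of striatal tissue in the Tubb4a and Nefm values was not tested.

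**Figure D4:**
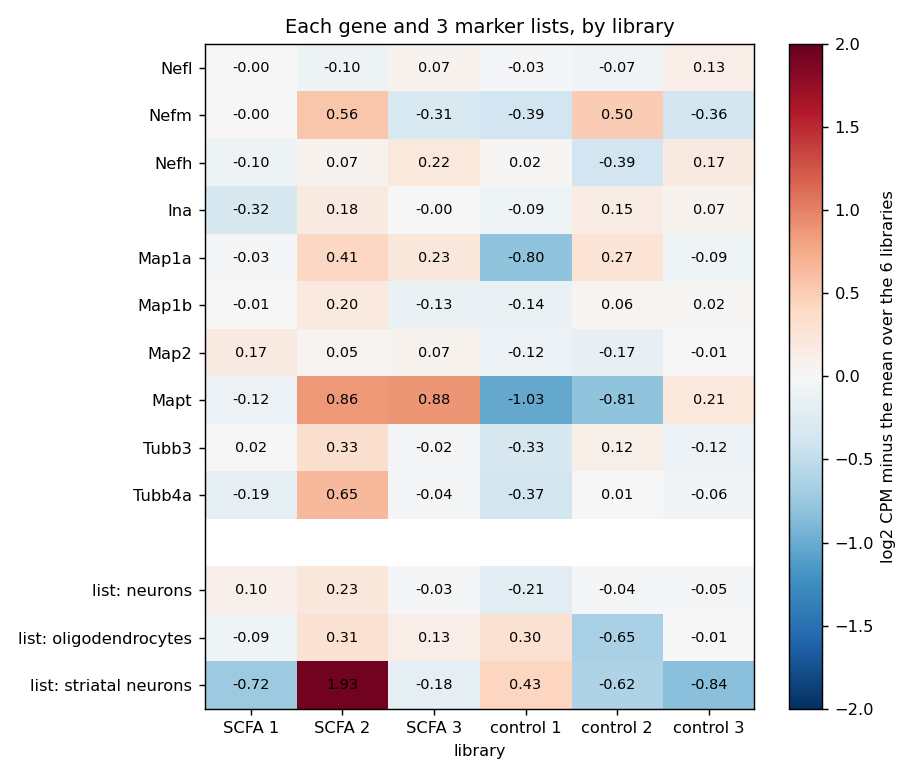
Log2 CPM of each gene, minus its mean over the 6 libraries, with SCFA 1 to 3 on the left and control 1 to 3 on the right, above the scores of 3 marker lists (mean centred log2 CPM with a prior count of 2). Nefm is high in SCFA 2 and control 2, Tubb4a and the striatal list in SCFA 2, and Mapt varies most.

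Related cytoskeletal genes gave a like picture, with 0 called in each of 8 lists at an adjusted p under 0.05 by edgeR. Over all tested genes that share was 0.0835%. Over 13 tested genes of 16, the other tubulins had a median log2 fold change of 0.08 and a range of -0.96 to 0.79. Tuba1a was at 0.18 (SE 0.141) and Tubb2a at 0.04 (SE 0.201). The gamma-tubulin genes Tubg2 and Tubg1, whose product nucleates microtubules, had the smallest p in that list, with log2 fold changes of 0.71 (SE 0.271) and 0.62 (SE 0.298). Other microtubule-associated proteins had a median of 0.18 over 19 tested genes of 24, with Map7d2 at 0.80 (SE 0.437) and the doublecortin-like kinase gene Dclk1 at 0.52 (SE 0.333). Stathmins and collapsin response mediators, which bind tubulin dimers, had a median of -0.0043 over 9 genes, with Stmn3 at 0.16 (SE 0.150) and Dpysl3 at 0.74 (SE 0.737). At an unadjusted p under 0.05, edgeR gave 2 intermediate filament genes, 1 tubulin gene and 1 gene of tubulin modification among the 8 lists and 0 in the other 5, where 5.76% of all genes passed. DESeq2 called 1 gene in the 8 lists, an intermediate filament gene, beside 0.259% of all genes, and limma-voom called 0 over all genes.

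Genes of tubulin folding, modification and severing had a median of -0.02 over 17 tested genes of 23. Ttll7, an enzyme that adds glutamate to tubulin, had 266, 235 and 264 CPM in SCFA 1 to 3, against 309, 319 and 313 CPM in control 1 to 3, with a log2 fold change of -0.30 (SE 0.128). Each SCFA library lay below each control library, as for 5.74% of all genes, and the adjusted p was 0.864 (edgeR). The tubulin chaperone gene Tbca was at -0.64 (SE 0.376). Kinases and phosphatases that act on tau and neurofilaments had a median of 0.09 over 14 genes, with Mark1 at 0.29 (SE 0.165) and the Cdk5 activator gene Cdk5r2 at 0.26 (SE 0.209).

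Axonal motors had a median of -0.13 over 18 tested genes of 23, with 13 below 0, which became 0.02 with total-count scaling. Their lowest p values were those of the dynein regulator gene Pafah1b1 at -0.48 (SE 0.238) and the kinesin gene Kif1b at -0.35 (SE 0.206). The spectrins and ankyrins of the axon membrane had a median of 0.15 over 7 tested genes of 10, with Sptbn1 at 0.16 (SE 0.138) and Sptbn4 at 0.23 (SE 0.225). Ank3, the ankyrin of the axon initial segment, was at 0 counts.

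Among intermediate filament genes outside the neurofilaments, a list that includes 3 lamin genes of the nuclear envelope, the median log2 fold change was 0.37 (8 genes tested of 9), and Gfap and Vim had the smallest p. Gfap, the filament of astrocytes, had 206, 362 and 212 CPM in SCFA 1 to 3, against 125, 155 and 125 CPM in control 1 to 3, and Vim, a filament of astrocytes and vessels, 55.5, 129 and 68.0 CPM against 45.1, 56.9 and 58.2 CPM. Their log2 fold changes were 0.95 (SE 0.207) and 0.66 (SE 0.265), and neither passed in edgeR (adjusted p = 0.346 and 0.864). The summed levels of astrocyte genes were 1148 to 1650 CPM in SCFA and 829 to 986 CPM in control libraries (9 tested of 10, none at 0), and those of microglia 558 to 850.0 CPM and 329 to 465 CPM (11 tested of 12, Ctss at 0). The difference between these lists and the 10 genes was not tested.

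**Figure D5:**
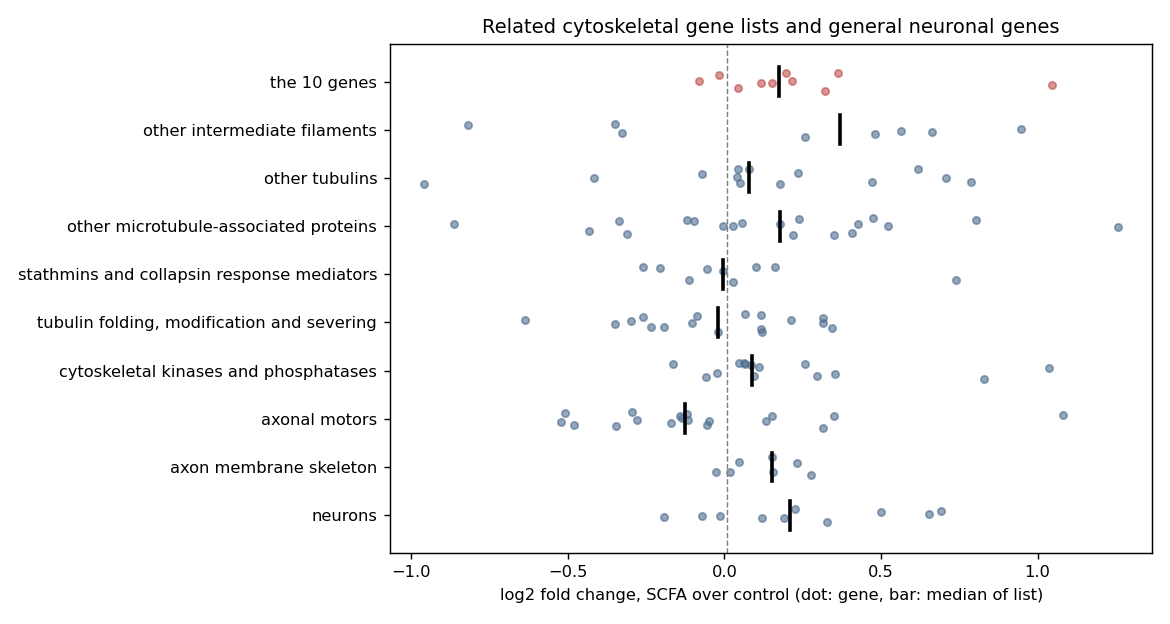
Log2 fold change of SCFA over control for each tested gene (dots) and the median (bar) of the 10 genes, of 8 related cytoskeletal lists and of general neuronal genes, with a dashed line at the median of all tested genes. The medians lie between -0.13 for axonal motors and 0.37 for other intermediate filaments, and the 10 genes lie at 0.17.

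The markers with the smallest p in the other lists, in edgeR, were Nrgn for neurons (log2 fold change 0.50, SE 0.183), Rorb for cortical neurons (0.58, SE 0.236), Adcy5 for striatal neurons (0.47, SE 0.203), C1qb for microglia (1.17, SE 0.236), Gpr17 for oligodendrocyte precursors (0.96, SE 0.382), Slc2a1 for endothelium (0.71, SE 0.229) and Mobp for oligodendrocytes (-0.49, SE 0.315). Their adjusted p values lay between 0.194 and 0.892. Over the whole lists, oligodendrocyte genes were at a median of 0.21 with 6 of 9 above 0, and cortical neuron genes at 0.08 with 5 of 10 above 0. Striatal neuron genes were at a median of 1 with 9 of 9 above 0, which became -0.29 without SCFA 2. Of 11 microglia genes, 8 were higher in SCFA at an unadjusted p under 0.05, as were 4 of 9 astrocyte genes, where 5.76% of all genes passed in either direction, and edgeR called 0 of either list. DESeq2 called 4 of the microglia and 2 of the astrocyte genes, beside 0.259% of all genes, and edgeR called 2 microglia genes without control 2. Amy2a5, a digestive enzyme gene of the pancreas and the marker in the list of another organ, was lower in SCFA libraries, at 0.209, 0.275 and 0.149 CPM in SCFA 1 to 3, against 100.3, 199 and 10.5 CPM in control 1 to 3 (adjusted p = 0.0107). In that list 14 of 16 genes were tested and summed to 1.03 to 3.50 CPM in SCFA and 41.4 to 389 CPM in control libraries. Of these, 8 were called lower, among the 10 genes called over the whole table. Without SCFA 1, SCFA 2 or SCFA 3, edgeR called 0 of them and 0 genes lower in all (382, 218 and 242 at an unadjusted p under 0.05), and without control 1 it called 1. The part of such RNA in the values of the 10 genes was not tested.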

How the data were processed

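The authors deposited 1 table of raw read counts, with 34755 RefSeq transcript rows and 6 libraries. CASAVA 1.8.2, featureCounts and the build mm10 were used, per the submitters' processing notes. The sources used here do not name the aligner, the strandedness of counting or the handling of shared reads. Snap-frozen cortex was extracted on RNeasy columns and sequenced with Ovation Human FFPE libraries, per the labels' protocols. Of the rows, 34424 (99.05%) were matched to a symbol through RefSeq (GRCm38.p6) and summed per symbol, which left 24553 entries.

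The test was that of edgeR 4.0.16 under R 4.3.3 (filterByExpr with a minimum count of 10 and a minimum total of 15, TMM scaling, quasi-likelihood F test, two-sided, Benjamini-Hochberg adjustment, threshold 0.05, no covariate). The row with no gene name stayed in the library sizes. CPM is the count per 1e6 counts of the TMM-scaled library size, and 3 counts stood for 0.207 to 0.346 CPM. SE is the log2 fold change divided by the square root of F, and intervals are 95%. Alternatives used DESeq2 1.42.0 and limma 3.58.1. The fit was tested on simulated data. The edgeR p sets the difference between groups against the spread between libraries within groups, moderated over genes. The permutation p is the share of relabellings of the libraries that give a difference at least as large. The correlations of deviations between libraries of the same number were -0.0021, 0.010 and -0.0052, beside -0.0083 to 0.012 for libraries of unlike number. Taken over all tested genes together, they cannot exclude handling shared by number. The main fit used no pairing.

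The 10 genes and all lists were chosen with earlier results of these data known. Named are the 10 genes, any cytoskeletal list gene past the threshold, the 2 tested genes of smallest p in each cytoskeletal list, 1 in each cell type list, and the 5 genes of most similar profile. One oligodendrocyte marker is not reported here. Tuba1a, Tubb2a and genes named at 0 counts were added after their values were seen.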

Additional observations from a re-analysis of the deposited data

How the results depend on the processing

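Under all 18 alternatives 0 of the 10 genes were called, higher or lower. Their median log2 fold change of 0.17 was 0.07 to 0.25 with 1 library left out, lowest without SCFA 2, 0.14 without control 2 and SCFA 2, and 0.18 with the replicate number as a block, where 0 were called. Total-count scaling moved it to 0.40 and the median of all genes to 0.18, with all 10 genes above 0, Nefl at 0.15 and Ina at 0.12. With 1 library left out, log2 fold changes ran from -0.061 to 0.046 for Nefl, -0.12 to 0.50 for Nefm, -0.026 to 0.24 for Nefh, -0.19 to 0.049 for Ina and -0.042 to 0.12 for Map1b, so the direction of these 5 rests on single libraries. Without control 2 and SCFA 2, Nefh was at -0.026 and Map1b at -0.0090. The signs of Map1a, Map2, Mapt, Tubb3 and Tubb4a did not turn under any alternative run. The lowest adjusted p of any of the 10 was 0.754, for Tubb4a without a filter on low counts. At an unadjusted p under 0.05, 1 of the 10 passed without that filter, 1 without SCFA 1 and 2 without control 2. Of all 18852 genes tested without the filter, 594 higher and 578 lower passed. Without SCFA 1 these were 367 and 382 of 12552, and without control 2 they were 431 and 320 of 12602. Under the other alternatives 0 of the 10 passed.

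Over all genes, 1 was called higher and 9 lower, against 30 and 25 without a filter, 14 and 17 with DESeq2, 0 and 0 with limma-voom (421 and 384 at an unadjusted p under 0.05), 10 and 12 with the replicate block, 14 and 11 without control 2 and SCFA 2, and 0 to 8 and 0 to 13 with 1 library left out. The standard errors were widest for the short Map2 row and for Mapt, with 80 and 150 counts in all.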

Other observations

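Several genes of the cytoskeletal lists had too few counts to be tested and were not compared. Prph, an intermediate filament gene of peripheral neurons, was at 0 counts in all 6 libraries together, as were the adducin gene Add2, the severing enzyme gene Spast and the kinesin gene Kif3a. Dcx, a marker of migrating young neurons, had 33 counts in all, and the kinesin light chain gene Klc1 had 2. The handling of reads shared by transcript rows is unknown here, and a count of 0 was not read as absence. These genes were chosen after their values were seen.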
